A study of Homo sapiens with 12 samples.

Results

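The genes described here encode the enzymes of cholesterol and fatty acid synthesis together with the proteins that sense sterols and set the activity of the pathway. They were given as a list of 33 gene symbols with these functions, chosen with earlier results of these data known. All 33 were found among the 60580 genes of the count files. RNA from HCT116 cells, an established human colorectal cancer cell line, was sequenced in 4 states. *Wild-type* cells (*WT*, single-cell clones obtained with the Cas9 plasmid without a guide) and cells in which the regions encoding *miR-34a*, *miR-34b* and *miR-34c* had been deleted with CRISPR-Cas9 (*miR-34a/b/c-KO*, here *KO*) were treated for 48 h with DMSO, the solvent, or with 4 µM of 5-fluorouracil (5-FU), a pyrimidine analog used in the therapy of colorectal cancer. All cells were grown with serum, which supplies cholesterol and fatty acids, and every group carried the exposure to Cas9. The comparisons ask how the loss of *miR-34a/b/c*, the treatment with 5-FU and the combination of both are reflected in the mRNA levels of these genes.

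Cholesterol is made from acetyl-CoA. The first steps lead through mevalonate to isoprenoid diphosphates, which also feed the prenylation of proteins, and the later steps join the isoprenoids to squalene, close the sterol rings and trim lanosterol to cholesterol. Fatty acids are made from cytosolic acetyl-CoA by carboxylation and stepwise elongation, and are then desaturated and built into glycerolipids. Both branches are transcribed under the control of the sterol regulatory element-binding proteins (SREBPs), which are made as membrane proteins of the endoplasmic reticulum. When sterols are scarce, the escort protein SCAP carries SREBP to the Golgi, where the transcription factor is cut free. When sterols are abundant, the INSIG proteins hold SCAP and SREBP back. *INSIG1* is itself transcribed by SREBPs, as are most genes of the list.

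The count files of 12 libraries were labelled, 3 for each state. The file of *WT* cells treated with 5-FU, replicate 1, was identical to that of *WT* cells treated with DMSO, replicate 3 (0 of 60580 genes differed), and was left out. 11 libraries with 22831415 to 39064210 counts remained, with n = 2 for 5-FU-treated *WT* cells (replicates 2 and 3) and n = 3 for the other states. *EPCAM*, which marks epithelial cells, was present at 306 to 424 CPM (counts scaled to a common library size) in all libraries, and the leukocyte gene *PTPRC* had at most 1 count. *CEACAM5* and *VIL1*, markers of differentiated colonic epithelium, were absent or low, with at most 2 and 53 counts. *COL1A1*, a collagen gene of mesenchymal cells, was counted 492 to 2311 times per library (20.7 to 74.0 CPM), least in *WT* cells with DMSO, and its part in the results was not tested. The deleted miRNA genes had 0 counts in all libraries, *WT* included, so that this assay does not show the deletion. The host transcript of *miR-34a*, *MIR34AHG*, which is mostly outside the deleted part, had 101 to 185 counts in *WT* and 514 to 675 in *KO* cells treated with DMSO.

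The 33 genes had 307 (*HSD17B7*) to 89072 (*SCD*) counts per library, and all of them passed the filter of 20 counts in at least 1 library, which left 16123 genes for the tests. From here on, CPM were scaled with upper-quartile factors. The SD between libraries of a state had a median over the 33 genes of 3.26% of the mean in *WT* and 3.86% in *KO* cells treated with DMSO, of 7.73% in *WT* and of 4.07% in *KO* cells treated with 5-FU, and was largest for *STARD4* in *WT* cells treated with 5-FU (20.4%). Below, a gene is said to have risen or fallen, or to be called higher or lower, when the quasi-likelihood test of edgeR gave a false discovery rate (FDR) under 0.05 over all genes tested and the fold change was above 1.5. Log2 fold changes are given with their standard error (SE). All levels are relative to the RNA counted in a library, so that less mRNA of a gene per cell and more RNA of other genes cannot be told apart. The sources do not say whether the libraries of a state came from different clones or cultures, so that the p-values cover the spread between these libraries only.

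The share of all counts that fell on the 33 genes was highest in *WT* cells treated with DMSO (0.752% ± 0.0125, SD, n = 3) and lowest in *KO* cells treated with 5-FU (0.325% ± 0.0072, n = 3). It was 0.562% ± 0.0105 (n = 3) in *KO* cells treated with DMSO and 0.517% ± 0.018 (n = 2) in *WT* cells treated with 5-FU. No library of one state overlapped with a library of another state. *SCD* alone took 0.254% of the counts in *WT* cells treated with DMSO and 0.0436% in *KO* cells treated with 5-FU, and *FASN* 0.156% and 0.0779%. The other 31 genes together went from 0.342% ± 0.0059 to 0.204% ± 0.0028, with 0.276% and 0.268% in the 2 states between, whose ranges (0.272 to 0.280% and 0.266 to 0.269%) lay close together. Of the 33 genes, 23 had their highest mean in *WT* cells given DMSO, and the lowest mean of 25 was in *KO* cells treated with 5-FU. The same order was not counted over all genes tested, so that how particular it is to the 33 genes is not known.

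**Figure D1:**
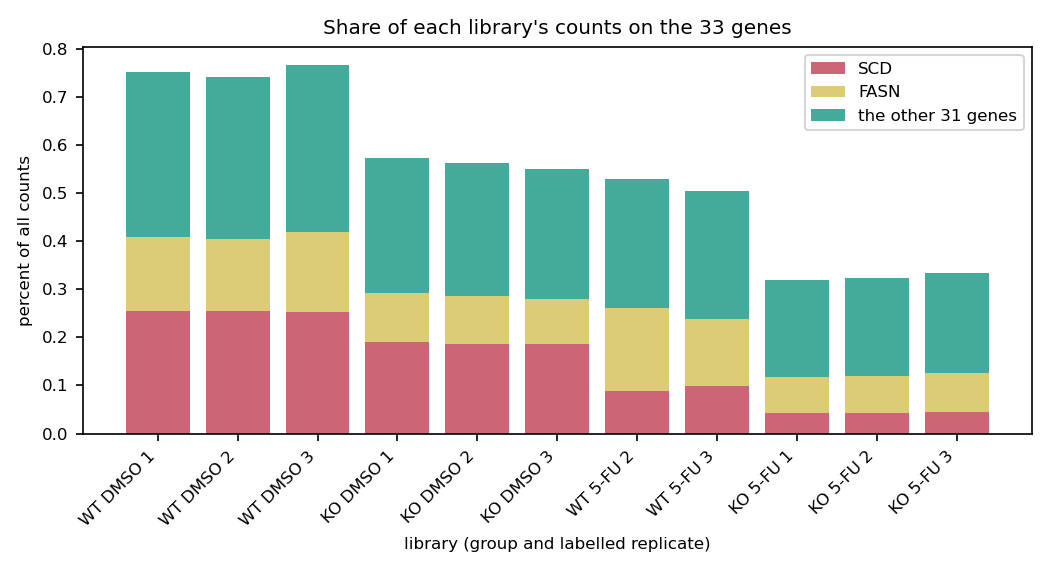
Percent of all counts of each of the 11 libraries (horizontal axis, group and labelled replicate) that fell on the 33 genes, stacked by *SCD*, *FASN* and the other 31 genes. The bars add up to 0.740 to 0.765% in *WT* cells treated with DMSO and to 0.320 to 0.334% in *KO* cells treated with 5-FU.

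Per length of exon (RPKM, CPM divided by the kilobases of all annotated exons of a gene), *SCD*, which encodes the stearoyl-CoA desaturase, was the most abundant of the 33 mRNAs in *WT* cells treated with DMSO (500 ± 8.41, SD, n = 3), followed by *FASN*, the fatty acid synthase (173 ± 7.41), and *ACLY*, the ATP citrate lyase that supplies cytosolic acetyl-CoA (84.7 ± 0.947). *FADS2*, a desaturase of polyunsaturated fatty acids, was the least abundant (1.33 ± 0.0768). In *KO* cells treated with 5-FU, *SCD* had fallen to the level of *FASN* (79.2 ± 1.71 and 79.7 ± 3.74 RPKM).

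**Figure D2:**
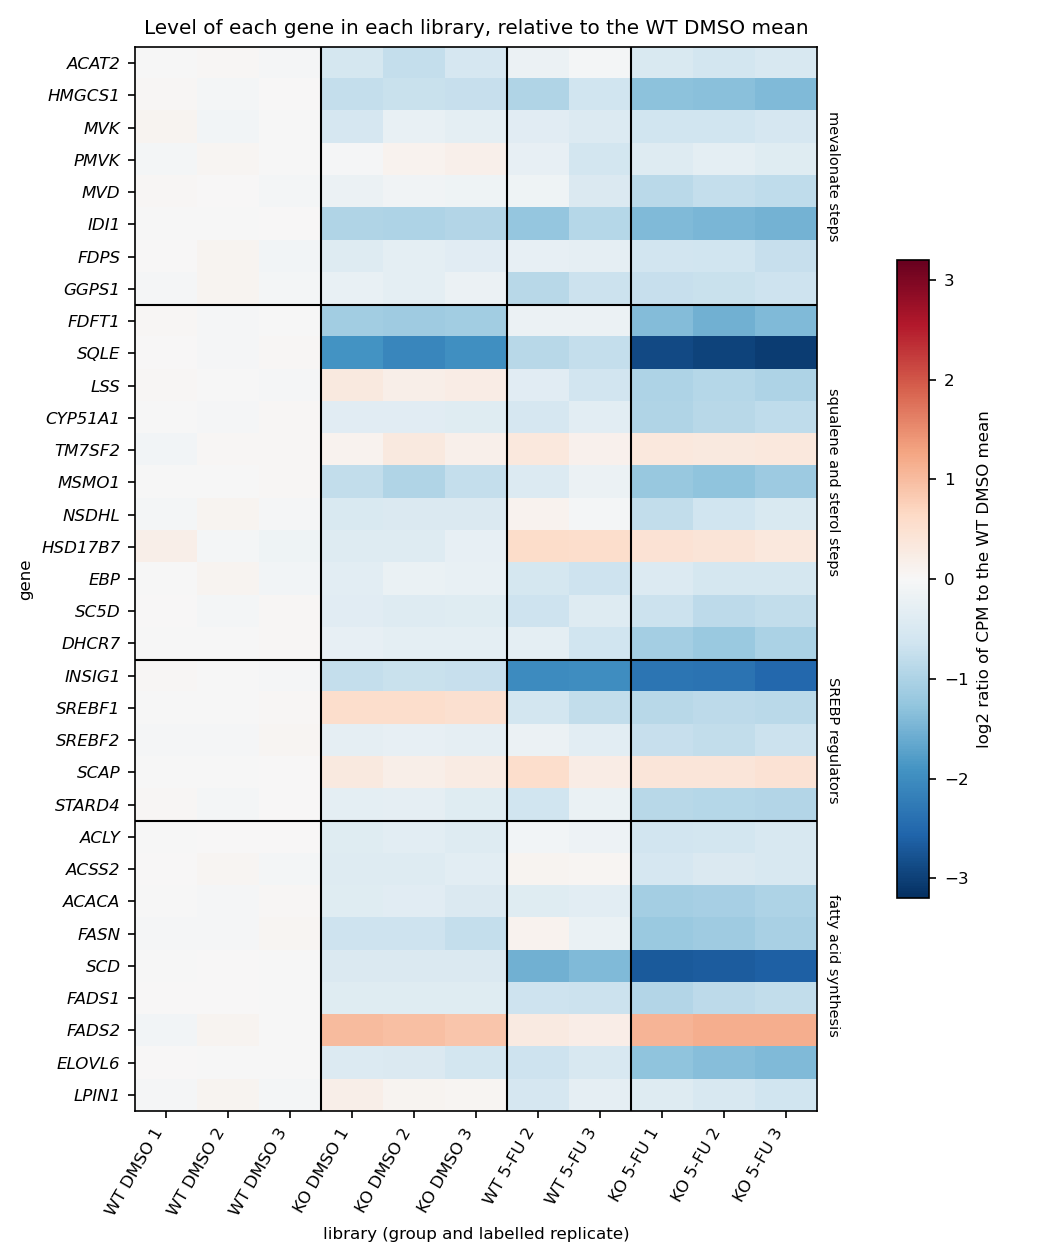
Log2 ratio of the CPM of each gene (rows, grouped by role) in each of the 11 libraries (columns) to the mean of *WT* cells treated with DMSO. Blue is lower and red is higher, and the rows of *SQLE*, *INSIG1* and *SCD* reach the darkest blue in *KO* cells treated with 5-FU.

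The regulators are described first. *INSIG1* had 106, 104 and 102 CPM in the libraries of *WT* cells treated with DMSO and 25.8 and 26.2 CPM in those treated with 5-FU. In *KO* cells it had 61.2, 63.0 and 62.7 CPM with DMSO and 20.48, 19.98 and 18.28 CPM with 5-FU. The 4 states did not overlap. *INSIG1* fell with 5-FU by 3.98-fold in *WT* cells (log2 fold change -1.99, SE 0.064, FDR = 2.88e-13) and by 3.18-fold in *KO* cells (-1.67, SE 0.058, FDR = 7.51e-13). It was lower in *KO* than in *WT* cells with DMSO (1.66-fold, -0.74, SE 0.052, FDR = 1.44e-08), and with 5-FU the difference was -0.41 (SE 0.065, FDR = 8.46e-05), below the required fold change. The 5-FU response of *INSIG1* differed between the genotypes by 0.32 on the log2 scale (SE 0.084, FDR = 0.00987), also below the required fold change.

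*SREBF1*, which encodes the SREBP with the larger role in fatty acid synthesis, followed another pattern. With DMSO it had 272, 271 and 280 CPM in *WT* cells and 408, 408 and 390 CPM in *KO* cells. With 5-FU it had 181 and 160 CPM in *WT* cells and 147, 154 and 151 CPM in *KO* cells. The libraries of *KO* cells were thus the highest of all states with DMSO and the lowest with 5-FU. The difference between genotypes with DMSO was 0.55 (SE 0.052, FDR = 3.43e-07, 1.47-fold), under the required fold change. *SREBF1* fell with 5-FU by 1.61-fold in *WT* cells (-0.69, SE 0.060, FDR = 5.94e-08) and by 2.67-fold in *KO* cells (-1.42, SE 0.053, FDR = 1.98e-12), and this difference in the response was called (-0.73, SE 0.079, FDR = 7e-06).

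*SREBF2*, which encodes the SREBP with the larger role in cholesterol synthesis, moved less. It had 308, 307 and 328 CPM in *WT* and 259, 262 and 259 CPM in *KO* cells treated with DMSO, and 276 and 250 CPM in *WT* and 189, 181 and 195 CPM in *KO* cells treated with 5-FU. The *KO* libraries were below the *WT* libraries under both treatments. The log2 differences were -0.28 (SE 0.052, FDR = 0.000423) between genotypes with DMSO, -0.26 (SE 0.059, FDR = 0.00121) and -0.46 (SE 0.053, FDR = 1.18e-06) for 5-FU in *WT* and *KO* cells, and -0.48 (SE 0.058, FDR = 5.07e-06) between genotypes with 5-FU, each below the required fold change. *SCAP* ranged from 60.7 CPM to 91.3 CPM over the 11 libraries, with its lowest mean in *WT* cells treated with DMSO. The sterol transfer protein gene *STARD4* ranged from 29.6 to 58.3 CPM, with its lowest mean in *KO* cells treated with 5-FU.

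**Figure D3:**
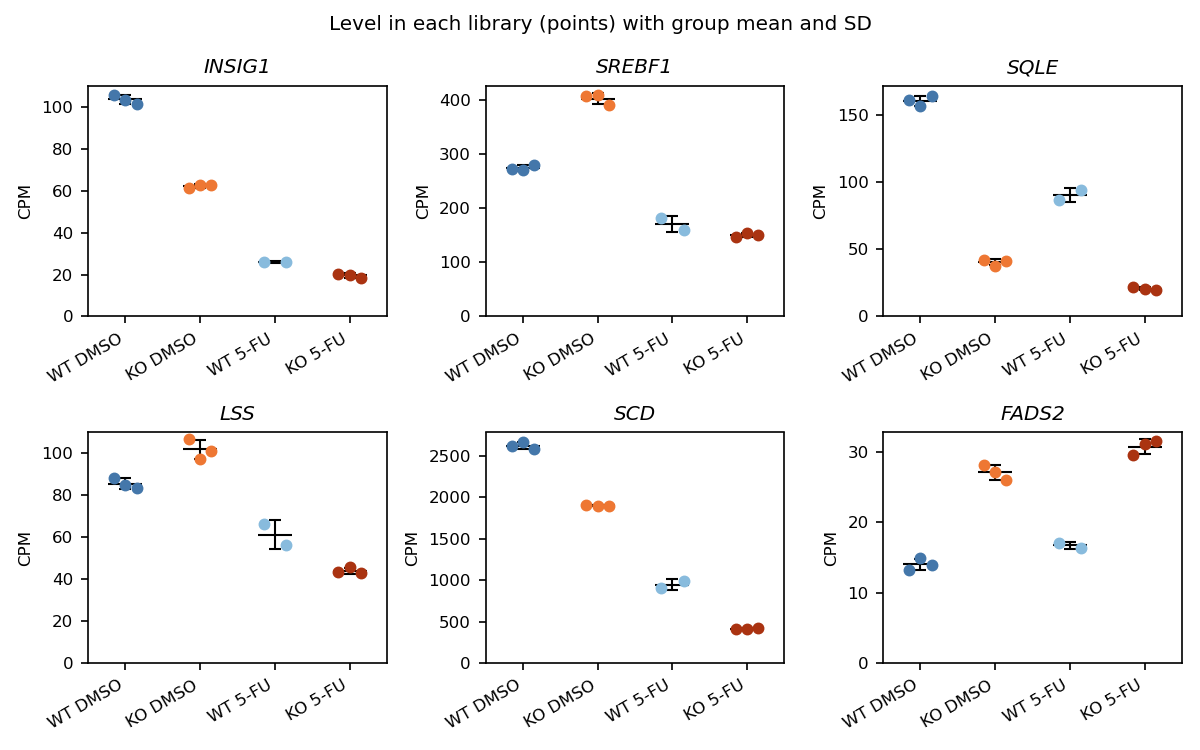
CPM (vertical axes, from 0) of *INSIG1*, *SREBF1*, *SQLE*, *LSS*, *SCD* and *FADS2* in each library (points) of *WT* and *KO* cells treated with DMSO or 5-FU, with the mean (horizontal line) and SD (bars, n = 3, and n = 2 for *WT* cells treated with 5-FU). *SCD* goes from a mean of 2620 to 415.5 CPM, *SREBF1* is highest in *KO* cells treated with DMSO, and *FADS2* is higher in *KO* cells under both treatments.

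SREBPs act at promoters through the sterol regulatory element, usually together with NF-Y, which binds CCAAT boxes, and with Sp1. Promoter sequences of 29 of the 33 genes (250 bases before to 50 after the start, RefSeq, GRCh38.p14) were searched on both strands. They are not given here for *ACAT2*, *SQLE*, *FDFT1* and *FASN*. An exact match of the element TCACNCCAC was found in 1 of the 29 promoters (3.4%), that of *SREBF2*, and in 1.15% of the 27305 promoters of all genes. Sites that differ from this string were not searched, so that a promoter without a match is not shown to lack a sterol regulatory element. CCAAT was found in 18 of the 29 (62.1%) and in 35.7% of all, and the Sp1 box GGGCGG in 26 of the 29 (89.7%) and in 44.6% of all. The 27305 promoters are not limited to the 16123 genes tested here. Whether the 29 promoters differ from those of other expressed genes was not examined. No match of one motif overlapped with a match of another (0 pairs). The 11 promoters without CCAAT were those of *ACACA*, *CYP51A1*, *ELOVL6*, *FADS1*, *FADS2*, *GGPS1*, *IDI1*, *LPIN1*, *PMVK*, *SCAP* and *SREBF1*. The promoter of *SREBF2* (chr22:41832855-41833154, plus strand) is shown because it holds the match of TCACNCCAC, which is in capitals and has its first base at position -133 from the start. The promoters of *HMGCS1* (chr5:43313363-43313662, minus strand), *INSIG1* (chr7:155297628-155297927, plus strand), *SREBF1* (chr17:17836937-17837236, minus strand) and *SCD* (chr10:100346983-100347282, plus strand) are shown because these genes fell with 5-FU in both genotypes, and that of *FADS2* (chr11:61815953-61816252, plus strand) because this gene was higher in *KO* cells. In these 5 sequences the capitals mark CCAAT on either strand, which occurs 2 times in *HMGCS1*, 1 time in *INSIG1* and 2 times in *SCD*. All are written in the direction of transcription.
SREBF2: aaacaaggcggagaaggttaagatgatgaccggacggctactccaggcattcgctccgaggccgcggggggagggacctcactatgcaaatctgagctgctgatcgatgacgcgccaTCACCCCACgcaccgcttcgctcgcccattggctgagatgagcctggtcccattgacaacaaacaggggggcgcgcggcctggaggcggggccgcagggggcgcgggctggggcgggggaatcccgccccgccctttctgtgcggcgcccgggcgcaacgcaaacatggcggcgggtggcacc
HMGCS1: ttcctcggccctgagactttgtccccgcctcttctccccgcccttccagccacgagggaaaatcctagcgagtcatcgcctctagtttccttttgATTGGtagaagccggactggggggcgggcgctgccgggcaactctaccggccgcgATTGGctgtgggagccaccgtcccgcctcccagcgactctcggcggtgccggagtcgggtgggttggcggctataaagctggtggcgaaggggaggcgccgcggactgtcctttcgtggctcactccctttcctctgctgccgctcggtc
INSIG1: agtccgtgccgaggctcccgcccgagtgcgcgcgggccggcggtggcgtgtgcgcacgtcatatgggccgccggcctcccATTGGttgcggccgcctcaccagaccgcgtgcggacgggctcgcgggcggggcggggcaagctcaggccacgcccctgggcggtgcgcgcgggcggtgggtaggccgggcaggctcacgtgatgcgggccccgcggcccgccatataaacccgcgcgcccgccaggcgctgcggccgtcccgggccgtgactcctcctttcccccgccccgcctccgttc
SREBF1: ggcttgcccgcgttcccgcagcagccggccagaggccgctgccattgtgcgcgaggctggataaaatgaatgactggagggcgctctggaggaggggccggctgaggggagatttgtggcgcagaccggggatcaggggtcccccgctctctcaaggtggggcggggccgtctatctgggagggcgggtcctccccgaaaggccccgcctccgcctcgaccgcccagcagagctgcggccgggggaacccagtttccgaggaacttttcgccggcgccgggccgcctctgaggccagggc
SCD: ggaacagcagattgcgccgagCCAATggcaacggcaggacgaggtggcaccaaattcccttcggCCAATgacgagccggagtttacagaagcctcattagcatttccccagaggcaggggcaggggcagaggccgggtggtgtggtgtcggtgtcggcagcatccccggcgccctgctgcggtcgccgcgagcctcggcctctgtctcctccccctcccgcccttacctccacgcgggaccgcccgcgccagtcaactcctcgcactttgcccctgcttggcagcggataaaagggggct
FADS2: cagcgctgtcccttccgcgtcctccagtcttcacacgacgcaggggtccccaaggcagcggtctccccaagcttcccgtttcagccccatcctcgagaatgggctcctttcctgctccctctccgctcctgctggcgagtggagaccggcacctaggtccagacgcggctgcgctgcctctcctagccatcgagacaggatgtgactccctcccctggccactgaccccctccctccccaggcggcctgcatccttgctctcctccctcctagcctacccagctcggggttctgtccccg

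With DMSO, 8 of the 33 genes were called lower and 1 was called higher in *KO* than in *WT* cells. Of all genes tested, 4.97% were called lower and 9.1% higher. The median log2 fold change was -0.37 over the 33 genes and 0.03 over all genes tested. The libraries of *KO* cells lay all below those of *WT* cells for 26 of the genes, all above for 5, and overlapped for 2 (*PMVK* and *LPIN1*). Over all genes tested, 27.4% lay all below and 30.1% all above. The genes called lower comprised 3 of the mevalonate steps (*ACAT2*, *HMGCS1* and *IDI1*), 3 of the squalene and sterol steps (*FDFT1*, *SQLE* and *MSMO1*), *INSIG1* and *FASN*. *FADS2* was called higher.

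*SQLE*, the squalene epoxidase and one of the steps that limit the flux to sterols, differed most between the genotypes. It had 161, 157 and 164 CPM in *WT* and 42.3, 38.0 and 41.1 CPM in *KO* cells (3.97-fold lower, log2 fold change -1.99, SE 0.058, FDR = 3e-13). *FDFT1*, the squalene synthase, had 232, 221 and 224 CPM in *WT* and 104, 103 and 104 CPM in *KO* cells (2.18-fold lower, -1.12, SE 0.047, FDR = 2.91e-11). The mRNAs of the enzymes that make and oxidize squalene thus both lay below the range of the *WT* libraries.

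*IDI1*, the isopentenyl diphosphate isomerase, had 112, 112 and 114 CPM in *WT* and 57.6, 56.9 and 59.4 CPM in *KO* cells (1.95-fold lower, -0.96, SE 0.068, FDR = 1.19e-08). *MSMO1*, the methylsterol monooxygenase, had 101, 101 and 104 CPM in *WT* and 58.6, 52.4 and 60.4 CPM in *KO* cells (1.78-fold lower, -0.83, SE 0.067, FDR = 5.71e-08). *HMGCS1*, which makes HMG-CoA, had 128.5, 119 and 125 CPM against 73.7, 75.7 and 73.9 CPM (1.67-fold lower, -0.74, SE 0.066, FDR = 1.88e-07). Each of these 3 genes showed a gap between the genotypes that was several times the spread within them.

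Among the fatty acid genes, *FASN* had 1565, 1573 and 1688 CPM in *WT* and 1014, 1023 and 947 CPM in *KO* cells (1.62-fold lower, -0.69, SE 0.068, FDR = 4.69e-07). *SCD* had 2618, 2665 and 2577 CPM in *WT* and 1909, 1891 and 1895 CPM in *KO* cells, a log2 difference of -0.47 (SE 0.042, FDR = 2.23e-07) that did not reach the required fold change. *FADS2* went the other way, with 13.2, 14.9 and 14.0 CPM in *WT* and 28.1, 27.2 and 26.0 CPM in *KO* cells (1.93-fold higher, 0.95, SE 0.071, FDR = 2.47e-08). Its neighbor *FADS1*, which encodes the desaturase that acts after that of *FADS2* and shares 490 bases of exon with it on the opposite strand, was at -0.39 (SE 0.047). *ACAT2*, the cytosolic acetoacetyl-CoA thiolase, was lower by -0.62 (SE 0.069), and its call was lost without *KO* DMSO replicate 2. *ACAT2*, *HMGCS1* and *FASN* were not called when the fold change was part of the test (glmTreat), and *ACAT2*, *HMGCS1* and *MSMO1* not with a factor estimated by RUVg, a step for unwanted variation that is described with the 5-FU response. The remaining log2 differences lay between -0.50 (*ELOVL6*, a fatty acid elongase) and 0.55 (*SREBF1*).

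**Figure D4:**
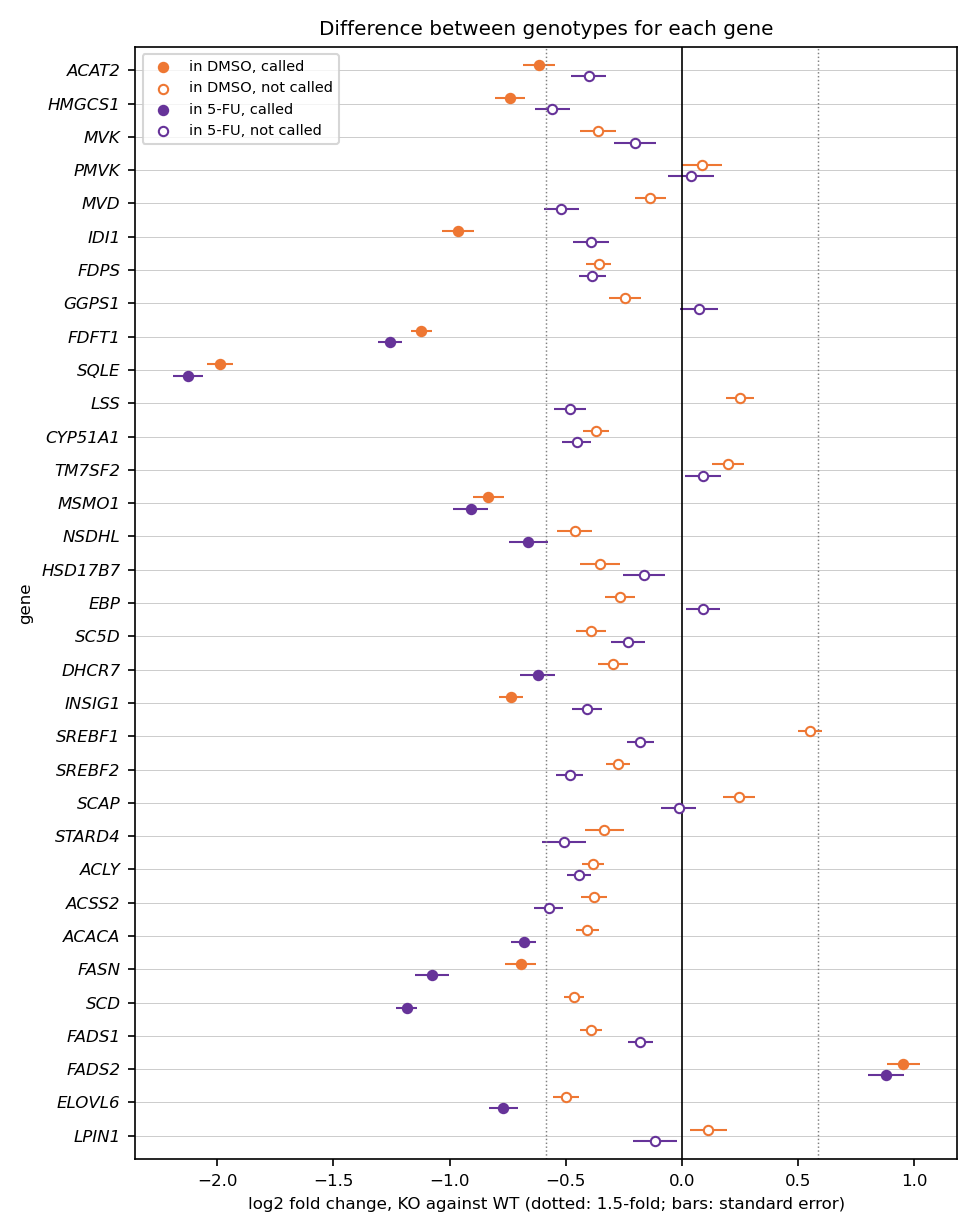
Log2 fold change of *KO* against *WT* cells (horizontal axis) with DMSO (orange) and with 5-FU (purple) for the 33 genes, with SE as bars. Filled points passed FDR and fold change, and the dotted lines mark the fold change of 1.5. *SQLE*, *FDFT1*, *MSMO1* and *FASN* are called lower and *FADS2* higher under both treatments.

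With 5-FU, 9 of the 33 genes were called lower and 1 was called higher in *KO* than in *WT* cells, against 10.6% and 7.58% of all genes tested. The median log2 fold change was -0.44 over the 33 genes and -0.05 over all. The libraries lay all below those of *WT* cells for 26 genes (35.1% of all genes tested), all above for 1 (27.9%), and overlapped for 6. The genes called lower were *FDFT1*, *SQLE*, *MSMO1*, *NSDHL* and *DHCR7* of the squalene and sterol steps and *ACACA*, *FASN*, *SCD* and *ELOVL6* of fatty acid synthesis, and the 8 genes of the mevalonate steps lay between -0.56 (*HMGCS1*, SE 0.075, FDR = 1.61e-05) and 0.07 (*GGPS1*). Of these, *HMGCS1* was called lower without *WT* 5-FU replicate 2, and *MVD* without *WT* 5-FU replicate 3 and with the RUVg factor. *FADS2* was again called higher (0.88, SE 0.078, FDR = 1.76e-07). *FDFT1*, *SQLE*, *MSMO1* and *FASN* were called lower under both treatments, which is 50% of the 8 genes called lower with DMSO and 44.4% of the 9 called lower with 5-FU. This overlap was not counted over all genes tested, so that how particular it is to the 33 genes is not known. The comparisons share no library. They come from 1 model with a shared estimate of the spread and compare the same genotypes, so that they are not independent.

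*SQLE* had 86.6 and 93.9 CPM in *WT* and 21.8, 20.7 and 19.5 CPM in *KO* cells treated with 5-FU (4.37-fold lower, log2 fold change -2.13, SE 0.065, FDR = 1.54e-12). *FDFT1* had 198 and 199 CPM in *WT* and 86.1, 77.8 and 85.5 CPM in *KO* cells (2.39-fold lower, -1.26, SE 0.052, FDR = 3.99e-11). *MSMO1* had 75.3 and 88.9 CPM in *WT* and 44.3, 41.5 and 45.3 CPM in *KO* cells (1.88-fold lower, -0.91, SE 0.075, FDR = 7.71e-08). The log2 difference between genotypes changed from DMSO to 5-FU by -0.138 for *SQLE*, -0.135 for *FDFT1* and -0.075 for *MSMO1*, none of which was called.

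*SCD* had 899 and 990 CPM in *WT* and 408, 413.5 and 425 CPM in *KO* cells treated with 5-FU (2.27-fold lower, -1.19, SE 0.047, FDR = 2.87e-11). *FASN* had 1741 and 1391 CPM in *WT* and 711, 737 and 780.0 CPM in *KO* cells (2.11-fold lower, -1.08, SE 0.074, FDR = 1.08e-08). The *WT* libraries of *FASN* were further apart than those of any other state, but both lay above all *KO* libraries. *ELOVL6* (-0.77, SE 0.063), *ACACA*, the acetyl-CoA carboxylase (-0.68, SE 0.054), *NSDHL*, a sterol dehydrogenase (-0.66, SE 0.085), and *DHCR7*, which reduces a late sterol precursor to cholesterol (-0.62, SE 0.075), were nearer to the required fold change. *NSDHL* and *DHCR7* were no longer called without *WT* 5-FU replicate 2, nor was *DHCR7* without *KO* 5-FU replicate 2, and *DHCR7* was not with TMM factors, DESeq2 size factors or the DESeq2 test. When the fold change was part of the test, *NSDHL*, *DHCR7* and *ACACA* were not called.

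*SQLE* and *FDFT1* lie on chromosome 8, and the genes around *SQLE* were also lower in *KO* cells. Of 23 other genes tested within 2 Mb on each side of *SQLE*, 22 had a log2 fold change below 0 with DMSO (median -0.70, 11 called lower), and 22 with 5-FU (median -0.58, 10 called lower). *SQLE* itself was at -1.99 and -2.13. The 7 genes tested around *FDFT1* had a median of -0.21 with DMSO and -0.46 with 5-FU, of which 1 was called lower with 5-FU, and the 10 around *INSIG1* a median of -0.27 and -0.05. Around *INSIG1*, 9 of the 10 were below 0 and 3 called lower with DMSO, and 5 were below 0 and 4 called lower with 5-FU. The 6 genes around *IDI1* (0.01), the 7 around *MSMO1* (0.08) and the 12 around *HMGCS1* (0.04) had medians near 0 with DMSO. Of all genes tested, 4.97% were called lower with DMSO and 10.6% with 5-FU. The part of the neighboring genes' shift in the values of *SQLE*, *FDFT1* and *INSIG1* was not tested.

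After treatment with 5-FU, 9 of the 33 genes fell in *WT* cells, and none was called higher by edgeR (0 genes, with 4 higher at an unadjusted p under 0.05 and 0 by DESeq2). Of all genes tested, 9.38% fell and 18.5% rose. In *KO* cells 11 genes fell and 1 rose, against 12% and 13.3% of all genes tested. The median log2 fold change of the 33 genes was -0.41 in *WT* cells (0.03 over all genes) and -0.46 in *KO* cells (-0.06 over all genes). The treated libraries lay all below the control libraries for 26 genes in *WT* cells (32.3% of all genes tested) and for 28 in *KO* cells (38.4%), and all above them for 5 (36.5%) and 4 (30.4%). The share of the 33 genes that fell, 27.3% in *WT* and 33.3% in *KO* cells, was thus higher than that of all genes tested, and the share that rose was lower.

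*HMGCS1*, *SQLE*, *INSIG1*, *SREBF1* and *SCD* fell in both genotypes, which is 55.6% of the 9 genes that fell in *WT* cells and 45.5% of the 11 that fell in *KO* cells. When the fold change was part of the test, *SREBF1* was not called in *WT* cells and *HMGCS1* not in *KO* cells. The comparisons share no library. *IDI1*, *GGPS1*, *EBP* and *FADS1* were called in *WT* cells alone, and *MVD*, *LSS*, *DHCR7*, *ACACA*, *ELOVL6* and *LPIN1* in *KO* cells alone. Of these 10 genes, only *LSS* was called in the test of the difference between the genotypes, which is described further on.

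*SCD* had 2577 to 2665 CPM in *WT* cells with DMSO and 899 and 990 CPM with 5-FU (2.77-fold lower, -1.47, SE 0.050, FDR = 5.89e-13), and 1891 to 1909 CPM and 408 to 425 CPM in *KO* cells (4.57-fold lower, -2.19, SE 0.044, FDR = 1.35e-15). *SQLE* fell by 1.78-fold in *WT* (-0.83, SE 0.062, FDR = 8.24e-09) and by 1.96-fold in *KO* cells (-0.97, SE 0.063, FDR = 1.52e-09). *HMGCS1* went to 63.5 and 79.5 CPM in *WT* cells (-0.80, SE 0.075, FDR = 1.38e-07) and to 49.6, 48.9 and 46.9 CPM in *KO* cells (-0.62, SE 0.069, FDR = 9.66e-07). For *HMGCS1*, *WT* cells treated with 5-FU and *KO* cells treated with DMSO overlapped.

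*IDI1* fell to 47.7 and 60.2 CPM in *WT* cells (2.10-fold, -1.07, SE 0.077, FDR = 5.74e-09), and was at -0.50 (SE 0.071) in *KO* cells, where it had 41.1 ± 1.24 CPM (SD, n = 3). *GGPS1*, which makes the geranylgeranyl diphosphate used in protein prenylation, fell in *WT* cells (-0.79, SE 0.080), as did *FADS1* (-0.67, SE 0.054) and *EBP*, a sterol isomerase (-0.61, SE 0.072). The call of *EBP* was lost without *WT* DMSO replicate 2 and without *WT* 5-FU replicate 3. In *KO* cells *LSS*, the lanosterol synthase that closes the sterol rings, fell from 106, 97.2 and 101 CPM to 43.0, 45.5 and 42.9 CPM (2.31-fold, -1.21, SE 0.062, FDR = 8e-11), and *ELOVL6* (-0.85, SE 0.058), *DHCR7* (-0.79, SE 0.068), *MVD*, the mevalonate diphosphate decarboxylase (-0.67, SE 0.070), *ACACA* (-0.64, SE 0.049) and *LPIN1*, a phosphatidate phosphatase (-0.64, SE 0.083), fell as well.

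*FASN* did not follow *SCD*. It had 1741 and 1391 CPM in *WT* cells treated with 5-FU against 1565 to 1688 CPM with DMSO (-0.04, SE 0.075, FDR = 0.676), with overlapping libraries, and the sign of this difference turned to 0.12 without *WT* 5-FU replicate 3. In *KO* cells *FASN* was at -0.42 (SE 0.067, FDR = 4.89e-05). *ACLY* and *ACSS2*, which make the acetyl-CoA that *FASN* draws on, lay between -0.18 and 0.07 in both genotypes. *HSD17B7*, a sterol keto-reductase, was the gene that rose, from 13.2, 13.1 and 14.6 to 23.9, 23.3 and 22.2 CPM in *KO* cells (1.70-fold, 0.76, SE 0.086, FDR = 1.12e-06), and was at 0.57 (SE 0.090) in *WT* cells. It has a pseudogene copy with which reads may be shared. *TM7SF2*, a sterol reductase, *SCAP* and *FADS2* had positive values from 0.13 to 0.42 in both genotypes, below the required fold change.

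**Figure D5:**
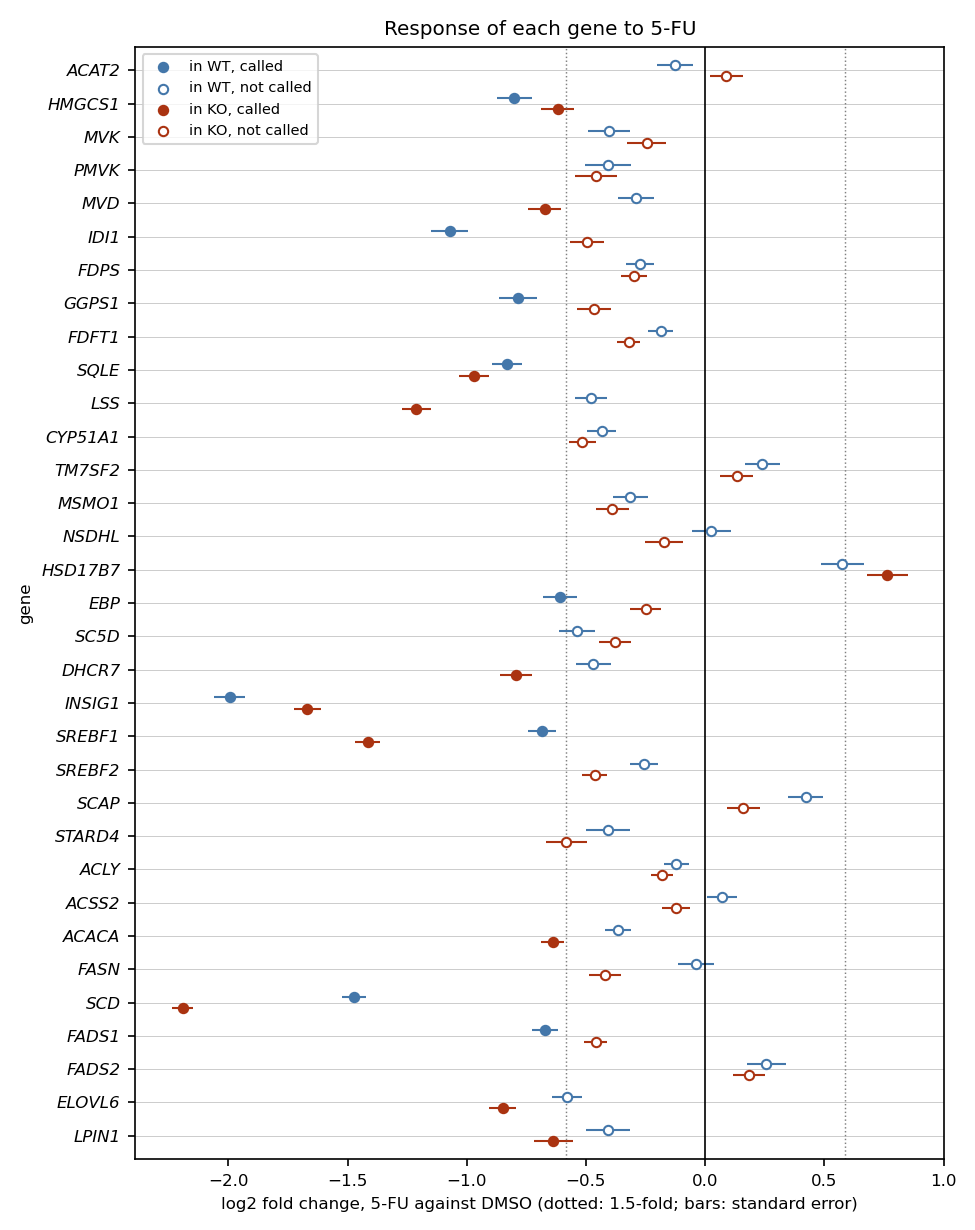
Log2 fold change with 5-FU against DMSO (horizontal axis) in *WT* (blue) and *KO* cells (red) for the 33 genes, with SE as bars. Filled points passed FDR and fold change, and the dotted lines mark the fold change of 1.5. *INSIG1* and *SCD* have the lowest values in both genotypes, and the values of *SREBF1*, *LSS* and *SCD* are further below 0 in *KO* cells.

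The calls of the 5-FU response were lost with the RUVg step as it was set here. With 1 factor of unwanted variation estimated by RUVg in the edgeR model, of whose variance 98.2% lay between the treatments, 0 of the 33 genes were called after 5-FU in either genotype, and the values of *HMGCS1* turned to 0.95 in *WT* and 0.94 in *KO* cells. A factor of this kind takes up the difference between treatments itself, so that this setting cannot show whether the calls hold. The calls of *HMGCS1* and *LPIN1* in *KO* cells were also lost with DESeq2.

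In the test of the difference between the 5-FU responses (*KO* minus *WT*), 3 of the 33 genes were called lower (6.66% of all genes tested) and 0 higher (3.42%), with 5 genes higher at an unadjusted p under 0.05 and 1, *IDI1*, higher by DESeq2. The median was -0.11 over the 33 genes and -0.09 over all genes tested. The 3 genes were *LSS* (-0.73, SE 0.091, FDR = 3e-05), *SREBF1* (-0.73, SE 0.079, FDR = 7e-06) and *SCD* (-0.72, SE 0.063, FDR = 1e-06). *LSS* had 88.1, 84.5 and 83.4 CPM in *WT* cells with DMSO and 65.9 and 56.3 CPM with 5-FU, so that its level in *KO* cells was above that of *WT* cells with DMSO and below it with 5-FU, as for *SREBF1*. With the RUVg factor *SCD* alone was called, and when the fold change was part of the test none of the 3 was. *IDI1* had the largest positive value (0.57, SE 0.103, FDR = 0.000827), just below the required fold change. The values were 0.18 for *HMGCS1* (SE 0.101, FDR = 0.197), -0.14 for *SQLE* (SE 0.087, FDR = 0.259), -0.21 for *SREBF2* (SE 0.078, FDR = 0.0629) and -0.38 for *FASN* (SE 0.101, FDR = 0.0109).

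Genes of related pathways were counted from lists made for this purpose. Liver X receptors (LXRs) are activated by oxysterols and induce the export of cholesterol. Of 7 genes of this list, 3 were called higher in *KO* cells with DMSO and 3 with 5-FU, and 1 rose with 5-FU in each genotype (42.9% in both comparisons of the genotypes, against 9.1% and 7.58% of all genes tested, and 14.3% after 5-FU, against 18.5% and 13.3%). *ABCA1*, which exports cholesterol from the cell, had 1.98, 2.07 and 1.68 CPM in *WT* cells with DMSO, 6.01, 6.77 and 6.48 CPM in *KO* cells with DMSO, 13.67 and 16.99 CPM in *WT* cells with 5-FU and 22.5, 20.2 and 23.0 CPM in *KO* cells with 5-FU. The 4 states did not overlap. *ABCA1* rose with 5-FU by 8.06-fold in *WT* (3.01, SE 0.132) and by 3.41-fold in *KO* cells (1.77, SE 0.104), and this difference was called (-1.24, SE 0.173, FDR = 8.89e-05). *MYLIP*, a ubiquitin ligase induced by LXRs, was higher in *KO* cells with DMSO (0.60, SE 0.081) and with 5-FU (0.84, SE 0.094), and *LPCAT3*, a phospholipid acyltransferase, with 5-FU (0.60, SE 0.060). *ABCG1* was called higher as well, from 0 to 2 counts in *WT* and 15 to 36 counts in *KO* cells with DMSO, a level at which no fold change is given.

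Of 10 genes for the processing and turnover of SREBPs, 1 rose and 2 fell with 5-FU in each genotype. These shares, 10% and 20%, stand beside 18.5% and 9.38% of all genes tested in *WT* and 13.3% and 12% in *KO* cells. *FBXW7*, the ubiquitin ligase component that targets nuclear SREBPs among other proteins, rose in *WT* (0.96, SE 0.091) and in *KO* cells (1.13, SE 0.083). *ERLIN1* fell in both (-0.79, SE 0.059, and -0.59, SE 0.052), *PAQR3* in *WT* (-0.80, SE 0.085) and the protease gene *MBTPS2* in *KO* cells (-0.59, SE 0.080). *INSIG2*, the paralog of *INSIG1*, ranged from 25.8 to 37.3 CPM over all libraries. Of 13 other sterol and isoprenoid enzymes, 3 were lower in *KO* cells with DMSO and 2 with 5-FU, and 2 fell with 5-FU in *WT* and 4 in *KO* cells. These were 23.1% and 15.4% between genotypes, against 4.97% and 10.6% of all genes tested, and 15.4% and 30.8% after 5-FU, against 9.38% and 12%. *LBR*, which has sterol reductase activity, was among them with DMSO (-0.61, SE 0.061) and after 5-FU in *WT* (-1.16, SE 0.070) and *KO* cells (-0.69, SE 0.062).

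Of 13 genes for the uptake, transport and storage of sterols, 2 were called lower in *KO* cells with DMSO. This is 15.4%, against 4.97% of all genes tested. *SCARB1*, a lipoprotein receptor, was among these 2 genes (-0.66, SE 0.061). With 5-FU, *SCARB1* (-0.72, SE 0.067) and *GRAMD1B* (-0.79, SE 0.123) were lower and *GRAMD1C* (0.66, SE 0.116) was higher. The shares called lower and higher with 5-FU were 15.4% and 7.69%, against 10.6% and 7.58% of all genes tested. *GRAMD1B* was also the only gene of this list called after 5-FU in *KO* cells (-0.92, SE 0.113). This is 7.69%, against 12% of all genes tested. Of 30 genes tested for other steps of fatty acid and glycerolipid synthesis, 6 rose and 4 fell with 5-FU in *WT* cells (20% and 13.3%, against 18.5% and 9.38% of all genes tested) and 6 rose and 2 fell in *KO* cells (20% and 6.67%, against 13.3% and 12%). *LPIN3* (1.27, SE 0.079, and 1.51, SE 0.071) and *FADS3* (1.56, SE 0.069, and 1.33, SE 0.063) rose and the acyl-CoA synthetase gene *ACSL3* fell (-1.25, SE 0.064, and -1.37, SE 0.057) in both genotypes. *ELOVL2* was also called higher in both, from 1 to 3 counts per library with DMSO to 9 to 21 counts with 5-FU. Between genotypes, 1 gene of this list was called higher and 3 lower with DMSO (3.33% and 10%, against 9.1% and 4.97% of all genes). With 5-FU, 4 were called higher and 4 lower (13.3% and 13.3%, against 7.58% and 10.6% of all genes tested). *AGPAT2*, a glycerolipid acyltransferase, was higher in *KO* cells under both treatments (0.80, SE 0.074, and 0.62, SE 0.083), and *ELOVL3* (0.84, SE 0.115), *LPIN3* (0.75, SE 0.077) and *ELOVL7* (0.61, SE 0.085) were higher with 5-FU. *ACSL5*, another acyl-CoA synthetase, was lower in *KO* cells with DMSO (-1.98, SE 0.051) and with 5-FU (-1.35, SE 0.055), as was *DGAT2*, which completes triglycerides (-0.63, SE 0.118, and -1.43, SE 0.126). Of 17 genes of beta-oxidation, 4 fell in *WT* and 2 in *KO* cells with 5-FU, which is 23.5% and 11.8%, against 9.38% and 12% of all genes tested. *ACAA2*, the last thiolase step of the mitochondrial pathway, was among both (-1.31, SE 0.094, and -1.22, SE 0.091).

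Reads of some of the 33 genes cannot be assigned with certainty, since exons overlap with other annotated genes (GENCODE release 44) and the strand setting of the counting is not stated. Exons shared with another gene made up 37.7% of the exon length of *HMGCS1*, 18.6% of *FDPS*, 17.2% of *ACAT2* and 15% of *IDI1*, each on the opposite strand. *CYP51A1* (68.2%), *GGPS1* (37.3%) and *EBP* (36.4%) share exons with annotated genes on their own strand. For *INSIG1*, *SQLE*, *SCD* and *FASN* no exonic overlap with another gene was found.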

How the data were processed

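Total RNA of HCT116 cells was sequenced after random-primed cDNA synthesis. According to the methods, the authors aligned the reads to GRCh38 (hg38 per the labels) with CLC Genomics Workbench and ENSEMBL annotation. The files deposited by the authors hold raw read counts per gene symbol, without filter or normalization, and these counts were used here (0 columns of samples were left unused, apart from the duplicated library). Replicates were stated as 3 per state, without saying whether these were different clones, and states were taken from the sample titles. Total counts were 22831415 to 39064210 per library. The members and the gene lists were chosen with earlier results of these data known.

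A gene was tested if 1 library or more held 20 counts of it. Counts were scaled by upper quartiles, and 1 model with 4 group means was tested by the quasi-likelihood method of edgeR 4.0.16 (R 4.3.3, two-sided), with the filter, scaling and thresholds of the study's methods. The study tested pairs of states with DESeq2 after RUVg and used edgeR for the interaction, so that the test of the 4 pairs departs from it, and DESeq2 and RUVg were alternatives here. P-values were adjusted by Benjamini-Hochberg over all genes of a comparison. A call required FDR < 0.05 and a fold change > 1.5. SE is the absolute log2 fold change divided by the root of the F statistic. CPM, counts per 1e+06 scaled counts, were computed by edgeR. Those of *EPCAM* and *COL1A1* are instead per 1e+06 total counts of a library, without upper-quartile factors. The script was tested on simulated data. Full statistics are given for *INSIG1*, *SREBF1*, *SREBF2*, *HMGCS1*, *SQLE*, *FASN* and *SCD* and for the 5 called genes with the largest change in each comparison, and up to 3 called genes are named per related list. Some genes of the related lists are not reported here. Other settings were TMM factors, size factors and the Wald test of DESeq2 1.42.0, other filters, glmTreat, RUVg, replicate blocks, fits of the 2 states compared, and leaving out each library. The 2 Mb windows, the summed share without *SCD* and *FASN* and a block by the numbers in the column headers were chosen after seeing the data. Positions and exons are from GENCODE release 44, promoters from RefSeq.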

Additional observations from a re-analysis of the deposited data

Results flagged for a closer look

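The response to 5-FU differed between the genotypes, by the test of the difference itself, for 3 of the 33 genes (9.09%, against 6.66% of all genes tested). None of the 3 was called when the fold change was part of the test, and *SCD* alone was called with 1 RUVg factor. In *KO* minus *WT* cells it was -0.73 on the log2 scale for *LSS*, -0.73 for *SREBF1* and -0.72 for *SCD*. *LSS* was at -0.48 in *WT* and at -1.21 in *KO* cells, *SREBF1* at -0.69 and -1.42, and *SCD* at -1.47 and -2.19. *LSS* and *SREBF1* had higher means in *KO* than in *WT* cells with DMSO and lower means with 5-FU, whereas *SCD* was lower in *KO* cells under both treatments. All other states had 3 libraries, but *WT* cells treated with 5-FU had 2.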

How the results depend on the processing

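Over 54 results and their alternatives, 1111 of the recomputed values were rated as kept. For a gene this means the same direction and side of the thresholds, and for a count of called genes a change of at most 1.5 times. Of the other values, 22 lost a call, 13 gained one, 6 turned direction and 26 counts moved by over 1.5 times. Fits without a library of a state outside the comparison are included, where little can change. Without a minimum fold change, 5 genes were called higher and 25 lower between genotypes with DMSO, 4 and 24 after 5-FU in *WT* cells, 2 and 26 in *KO* cells, 24 lower between genotypes with 5-FU, and 5 higher and 8 lower in the difference of the responses. The shares of all genes tested under that rule were 24.5% and 21.9%, 31.9% and 28.3%, 26.6% and 33.8%, 28% lower, and 10.1% and 16%. With the fold change as part of the test (glmTreat), 5 were lower with DMSO, *EBP*, *SREBF1* and *FADS1* were lost and 6 of 9 calls kept after 5-FU in *WT* cells, 0 rose and 7 fell after 5-FU in *KO* cells, and 0 were lower in the difference of the responses. With 1 RUVg factor, which takes up the difference between treatments (98.2% of its variance), 0 fell in *WT* cells, 0 rose and 0 fell in *KO* cells, and 1 was lower in the difference of the responses. It turned the 5-FU response in *WT* cells to 0.95 for *HMGCS1*, 1.21 for *IDI1* and 0.00071 for *SQLE*, that of *HMGCS1* in *KO* cells to 0.94, and its difference to -0.01. With TMM factors, DESeq2 size factors, the DESeq2 test or no filter, 1 gene (*IDI1*) was higher in the difference of the responses. Leaving out single libraries gave 0 to 1 genes higher after 5-FU in *WT* cells (*HSD17B7* without *WT* DMSO replicate 1) and 0 to 1 in the difference of the responses (*IDI1* without *KO* DMSO replicate 3, *WT* 5-FU replicate 3 or *KO* 5-FU replicate 3), and -0.21 (without *WT* 5-FU replicate 2) to 0.12 (without replicate 3) for *FASN* after 5-FU in *WT* cells. With *WT* 5-FU left with 1 library, that library is assumed to vary like the other states.

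No pairing by the replicate numbers was seen. Deviations of samples with the same number correlated from -0.194 to 0.237, and those with other numbers from -0.364 to 0.364. With so few libraries per state, these ranges cannot exclude a pairing. With the replicate block by the labels, 1 gene (*HSD17B7*) rose after 5-FU in *WT* cells. The column headers number the *WT* 5-FU libraries 1 and 2 instead of 2 and 3, and with a replicate block by these numbers *ELOVL6* was also called lower in *WT* cells. Neither replicate block lost a call.

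*WT* cells treated with 5-FU are represented by 2 libraries. At 307 counts, the lowest of any gene and library, counting error alone is 5.71%, above the median spread between libraries in the states with 3 libraries, so that depth as well as spread limits the genes with the fewest counts.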
